A study of Mus musculus with 15 samples.

Results

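The cytochrome P450 genes of mouse liver were followed in 4 groups of arrays, leaving aside 8 P450 genes (Cyp2e1, Cyp1a2, Cyp4a10, Cyp4a14, Cyp51, Cyp7a1, Cyp8b1 and Cyp27a1). Members were the genes whose name on the array begins with Cyp and a digit, other than those 8. The array carried 88 such genes, and 74 of them reached a signal well above background on 3 or more arrays of 1 group and were kept, of 22638 genes tested in all. The livers came from C57BL/6J mice lacking the maternally inherited copy of the miR-379/miR-410 microRNA cluster (KO) and from wild-type littermates (WT). Fetuses were taken by caesarean section at the end of gestation (E19.5, 3 WT and 3 KO arrays) and newborns after natural delivery on postnatal day 0 (P0, 4 WT and 5 KO arrays). Age and route of birth changed together, so their effects cannot be told apart. The replicates are numbered, and which animals shared a litter is not given, so p-values measure the spread between these samples.

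P450s are heme enzymes that insert an oxygen atom from molecular oxygen into their substrate, with electrons from the reductase Por in the endoplasmic reticulum or from ferredoxin in mitochondria. In liver, families 2 and 3 clear drugs and other foreign compounds and also oxidise steroids and fatty acids, and several of their subfamilies lie in tandem gene clusters and are regulated by nuclear receptors such as PXR (Nr1i2) and CAR (Nr1i3). The subfamily 4a enzymes hydroxylate the end of fatty acid chains and are known targets of PPAR alpha, and the subfamily 2j and 2c enzymes turn arachidonic acid into epoxides. Steroid hormone synthesis in adrenal and gonad, vitamin D activation and the breakdown of retinoic acid each depend on P450s of their own.

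The promoters of the 5 kept Cyp2j genes are shown first, because this was the subfamily in which every kept member was lower in KO liver at P0. They are RefSeq sequences on GRCm38.p6, on chromosome 4 and the minus strand, and cover the 250 bases before the transcription start, written 5′ to 3′ in the direction of the gene. Capitals mark the letters GGGTAAA, a stretch that was picked after these promoters had been read.

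Cyp2j5 (chr4:96664120-96664369): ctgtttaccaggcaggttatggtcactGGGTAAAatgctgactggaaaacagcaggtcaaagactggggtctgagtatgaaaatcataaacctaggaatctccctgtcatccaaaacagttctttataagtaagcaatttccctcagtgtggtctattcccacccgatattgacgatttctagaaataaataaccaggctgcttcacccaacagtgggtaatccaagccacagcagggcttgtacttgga
Cyp2j6 (chr4:96553652-96553901): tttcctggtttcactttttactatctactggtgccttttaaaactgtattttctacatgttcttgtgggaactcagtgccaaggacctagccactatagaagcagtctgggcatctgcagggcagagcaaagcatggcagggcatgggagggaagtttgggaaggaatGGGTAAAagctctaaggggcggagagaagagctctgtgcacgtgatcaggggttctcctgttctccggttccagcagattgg
Cyp2j8 (chr4:96507398-96507647): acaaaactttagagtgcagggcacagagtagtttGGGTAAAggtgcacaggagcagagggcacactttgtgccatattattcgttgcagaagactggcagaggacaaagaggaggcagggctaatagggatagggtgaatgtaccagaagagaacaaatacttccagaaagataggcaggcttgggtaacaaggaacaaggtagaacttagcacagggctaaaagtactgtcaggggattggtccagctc
Cyp2j9 (chr4:96591486-96591735): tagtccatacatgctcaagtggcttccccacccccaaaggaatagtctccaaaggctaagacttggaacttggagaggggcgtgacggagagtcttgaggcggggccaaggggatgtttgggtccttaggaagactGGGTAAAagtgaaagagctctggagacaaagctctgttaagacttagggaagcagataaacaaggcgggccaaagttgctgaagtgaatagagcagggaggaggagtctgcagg
Cyp2j13 (chr4:96077541-96077790): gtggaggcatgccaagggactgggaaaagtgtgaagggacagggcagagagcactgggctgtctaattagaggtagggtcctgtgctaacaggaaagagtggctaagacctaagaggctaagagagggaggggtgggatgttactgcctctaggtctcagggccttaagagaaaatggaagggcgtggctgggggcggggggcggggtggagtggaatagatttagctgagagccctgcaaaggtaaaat

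GGGTAAA was found in the promoters of Cyp2j5, Cyp2j6, Cyp2j8 and Cyp2j9 and not in that of Cyp2j13. On both strands it occurred in 5 of 18 promoters of genes that were lower in KO at P0, in 4 of 37 promoters of the other kept genes and in 2.33% of the 27025 promoters of the table. The stretch was picked from Cyp2j promoters, and all kept Cyp2j genes are among those lower at P0. Its excess among the 18 was therefore built in, and the only other gene with it there was Cyp2f2. Promoters were matched for 55 of the 74 kept genes and for 18 of the 24 genes lower at P0, and letters found in such a window are a description, not a binding site. None of the motifs searched contains another. The nuclear receptor core site AGGTCA was in 6 of the 18 (33.3%), in 7 of the 37 (18.9%) and in 13.8% of all promoters. The TATA box letters TATAAA were in 50% of the 18, in 35.1% of the 37 and in 13% of all. The CCAAT box letters CCAAT were in 50%, 40.5% and 34.5%, and the HNF1 core site GTTAAT in 11.1%, 5.41% and 6.52%. C/EBP (TTGCGCAA) and D box (TTATGTAA) letters were in 0 promoters of either set, against 0.17% and 0.862% of all, and the E box CACGTG was in 1 of the 18 and 1 of the 37, against 6.05% of all.

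The letters CAAAGTCCA, a sequence known to be bound by the hepatocyte factor HNF4A, stood in 7 of the 55 promoters, 1 of the 18 and 6 of the 37, against 0.381% of all promoters. All 7 belong to subfamilies 2c and 3a, all read in the direction of the gene, and the stretches around the match, with capitals on it, show how alike these paralogs are. Cyp3a41b, the 1 of the 7 that was lower in KO at P0, holds the same 49 letters as Cyp3a16, which did not pass the test.

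Cyp2c65 (chr19:39060870-39060918): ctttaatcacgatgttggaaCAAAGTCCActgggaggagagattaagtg
Cyp2c67 (chr19:39649139-39649187): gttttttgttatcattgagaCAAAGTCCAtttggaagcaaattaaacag
Cyp2c68 (chr19:39741150-39741198): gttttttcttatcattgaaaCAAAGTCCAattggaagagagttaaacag
Cyp2c70 (chr19:40187322-40187370): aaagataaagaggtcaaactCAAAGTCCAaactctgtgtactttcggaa
Cyp3a11 (chr5:145879935-145879983): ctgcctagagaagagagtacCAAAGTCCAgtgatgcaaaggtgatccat
Cyp3a16 (chr5:145469794-145469842): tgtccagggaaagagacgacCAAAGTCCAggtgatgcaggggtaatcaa
Cyp3a41b (chr5:145584797-145584845): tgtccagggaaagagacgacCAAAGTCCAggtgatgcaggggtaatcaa

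RNA of one member of a subfamily can bind the probe of another, and the probe letters show where this is closest. The probes of Cyp2c67 and Cyp2c68 differed at 4 of 59 aligned bases, those of Cyp3a41b and Cyp3a44 at 7 of 53 and those of Cyp2c37 and Cyp2c50 at 5 of 40. Stretches of 30 bases of these probes are shown with the differing bases in capitals, and the paired genes are best read as not fully separate measurements.

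Cyp2c67 probe: acAcagtcccagAaattccatctatattcc
Cyp2c68 probe: acCcagtcccagGaattccatctatattcc
Cyp3a41b probe: cagtgtctgtAcaGgttaTcatCtaatTAA
Cyp3a44 probe: cagtgtctgtGcaAgttaAcatAtaatACG
Cyp2c37 probe: aCactgACttttatccaGttcttttgcctC
Cyp2c50 probe: aTactgCTttttatccaTttcttttgcctG

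Levels are log2 processed signal minus the 75th percentile of that array, so 0 is that percentile and a difference of 1 is a 2-fold difference. Arrays are named by group and replicate number, as in WT P0 2, and listed in that order. The 75th percentile itself, a measure of how bright an array was, ran from 8.44 to 8.57 in WT and 8.81 to 9.05 in KO at E19.5, and from 9.23 to 9.61 in WT and 9.08 to 9.33 in KO at P0, so brightness moved with both age and genotype. Between 65 and 78 of the 88 genes were above background on an array, and precision is limited by how many arrays there are. Hepatocyte markers (Alb, Apoa1, Ttr, Fgb, Cps1 and Hnf4a) had a median level between 8.09 and 8.55 on every array. Mirg, the host transcript of the deleted cluster, differed between KO and WT by -3.48 at E19.5 and -2.70 at P0 on the log2 scale (adjusted p = 0.00017 and 0.00012), the direction the labels give. Transcripts typical of other tissues were brighter on certain arrays. The median of 5 exocrine pancreas genes was 1.60 on WT P0 3 and 2.97 on WT P0 4 against -2.06 to -0.04 on the other 13. Of these 5, Cela1 did not follow, at 0.49 and 0.72 on WT P0 3 and 4. The median of 5 adrenal cortex genes was 1.84 on WT P0 2 against -1.38 to -0.50 elsewhere. Skeletal muscle genes had medians of -3.03 on WT E19.5 1, -1.41 on WT P0 1, -1.78 on WT P0 2, -0.05 on WT P0 4 and -0.93 on KO P0 5, against -5.29 to -3.95 elsewhere. The muscle gene Mylpf followed these medians only in part. It was highest on WT E19.5 2 (1.25), next on WT P0 1 (-1.41), and low on WT P0 4 (-5.23) and KO P0 5 (-5.51). In these bulk samples, fewer cells of a type and less RNA per cell cannot be told apart.

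At P0 the comparison of KO with WT asks how the deletion alters the newborn liver's P450 genes. Of the 74 genes, 24 were lower in KO and 0 higher (limma with Benjamini-Hochberg adjustment, threshold 0.05), where 7.03% of all tested genes were called, 4.73% lower and 2.3% higher. The 24 are 32.4% of the members, and 16 of them were at least 2-fold lower. The median difference over the 74 genes was -0.42 on the log2 scale, against 0.02 over all tested genes, and 60 of the 74 were below 0. Every KO array lay below every WT array for 20 genes and above for 0, where 5.42% and 3.68% of all tested genes separated in these directions. The calls fell on subfamily 2j (5 of 5 kept genes), 2d (6 of 10), family 3 (4 of 8), 2a (2 of 3), 4a (2 of 4), 2c (2 of 13), 2b (1 of 3) and the remaining genes of family 2 (2 of 5). No gene of subfamily 4f (8 kept) or of the steroid, vitamin D, retinoic acid and sterol classes passed.

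**Figure D1:**
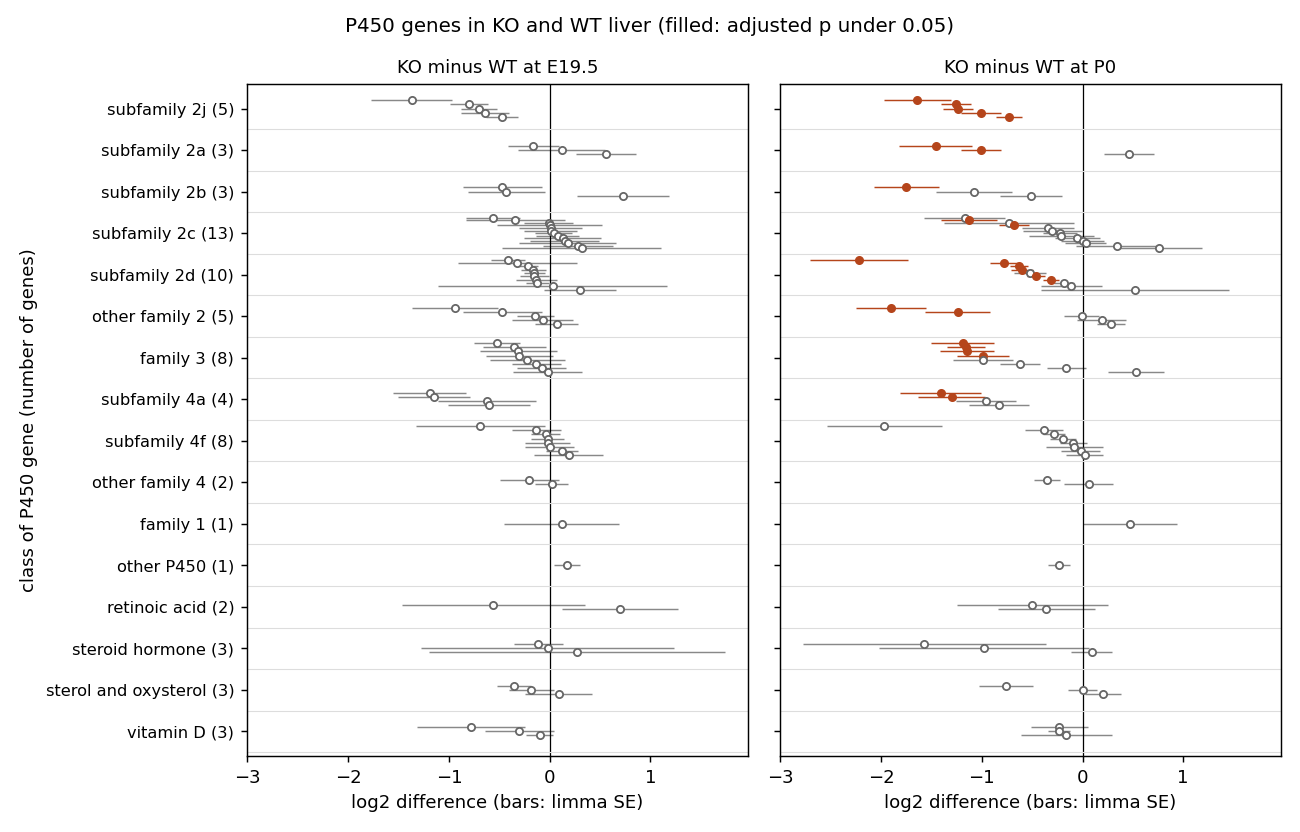
KO minus WT difference of each kept P450 gene at E19.5 (left) and P0 (right), in log2 units on the horizontal axis and by class on the vertical axis, with bars of 1 limma SE and filled points for adjusted p under 0.05. At P0 all 24 filled points lie left of 0, and at E19.5 none is filled while the 5 Cyp2j genes and the 4 Cyp4a genes all lie left of 0.

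The 5 Cyp2j genes, arachidonic acid epoxygenases and related enzymes of a tandem cluster on chromosome 4, were all lower in KO newborns, by 1.66-fold to 3.11-fold. The sizes depended on the background correction. With normexp correction and the 75th percentile all 5 still passed as lower, from -1.2 to -0.46 on the log2 scale. Their median was then -0.69, against -1.24. Cyp2j8 (probe on mm9 chromosome 4, 96111331 to 96111390) had levels of 1.55, 1.09, 1.88 and 1.76 on the 4 WT arrays and 0.65, 0.3, 0.31, 0.14 and 0.17 on the 5 KO arrays. All KO arrays lay under all WT arrays, and the difference was -1.26 on the log2 scale (SE 0.15, adjusted p = 0.0012). Cyp2j9 (mm9 chromosome 4, 96235281 to 96235340) gave -0.43, -0.33, -0.28 and -0.28 on the 4 WT arrays and -1.37, -1.83, -1.08, -1.88 and -1.66 on the 5 KO arrays. Its WT arrays lay close together while the KO arrays spread wider, without overlap, and it fell by 1.24 (SE 0.15, adjusted p = 0.0012). Cyp2j5, known from kidney and liver as an epoxygenase, was dim, with -3.61, -3.45, -2.65 and -3.32 on the 4 WT arrays and -4.31, -5.01, -3.93, -5.24 and -5.99 on the 5 KO arrays, and 3 of the 5 KO arrays were above background. It fell by 1.64 (SE 0.33, adjusted p = 0.012), and the groups did not overlap. For Cyp2j13 the levels were -1.69, -1.88, -0.82 and -0.84 on the 4 WT arrays and -2.32, -2.53, -2.19, -2.39 and -2.16 on the 5 KO arrays, and WT P0 3 and 4 stood highest. Cyp2j13 fell by 1.01 (SE 0.2, adjusted p = 0.011). Cyp2j6 had 0.5, 0.24, 0.66 and 0.75 on the 4 WT arrays and 0.14, -0.24, -0.05, -0.42 and -0.39 on the 5 KO arrays, again without overlap, and fell by 0.73 (SE 0.13, adjusted p = 0.0079). A second Cyp2j6 probe differed by -0.47.

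**Figure D2:**
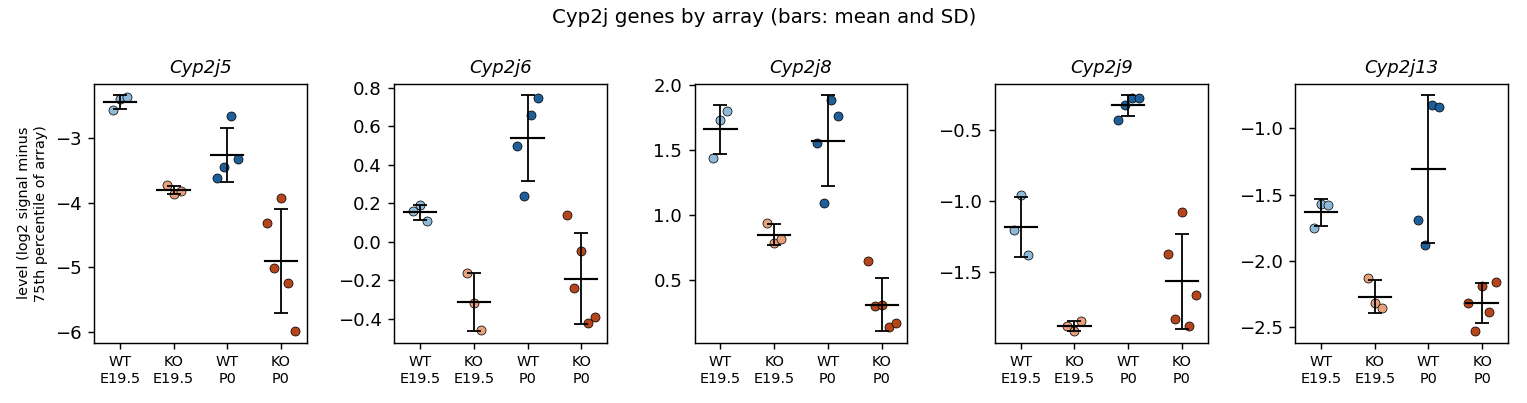
Levels of the 5 kept Cyp2j genes on each of the 15 arrays, as log2 signal minus the array's 75th percentile (vertical axis) by group (horizontal axis), with the group mean and SD as bars. In each panel all KO arrays of an age lie below all WT arrays of that age, at E19.5 as at P0.

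Family 3 is represented by the Cyp3a genes, which oxidise drugs and steroids and are induced through PXR, and 4 of its 8 kept genes were lower in KO at P0. Cyp3a41b gave 2.9, 3.18, 3.69 and 3.94 on the 4 WT arrays and 2.57, 2.03, 2.26, 2.18 and 2.29 on the 5 KO arrays, with no overlap, and fell by 1.16 (SE 0.19, adjusted p = 0.0045). Cyp3a44, whose probe is close to that of Cyp3a41b, gave 2.58, 2.99, 3.75 and 4.31 on the 4 WT arrays and 2.38, 2.18, 2.25, 1.88 and 2.61 on the 5 KO arrays. Its highest KO array passed its lowest WT array, and it fell by 1.15 (SE 0.27, adjusted p = 0.027; 0.055 with the replicate number as a block). Cyp3a57 had 4.33, 4.52, 5.4 and 5.56 on the 4 WT arrays and 3.87, 3.65, 3.6, 4.65 and 3.06 on the 5 KO arrays, overlapping at KO P0 4, and fell by 1.19 (SE 0.31, adjusted p = 0.039; 0.057 with the block). Cyp3a25 had 5.31, 5.54, 5.91 and 6.21 on the 4 WT arrays and 4.81, 4.61, 4.61, 5.55 and 4.2 on the 5 KO arrays, overlapping on the same array, and fell by 0.99 (SE 0.26, adjusted p = 0.037). The other 4 did not pass: the differences were -0.99 for Cyp3a59 (adjusted p = 0.066), -0.62 for Cyp3a16 (0.071), -0.16 for the PXR target Cyp3a11 (0.68) and 0.53 for Cyp3a13 (0.26). Cyp3a13 was the only Cyp3a gene with a difference above 0. Second probes differed by -0.75 for Cyp3a11, -2.03 for Cyp3a59 and 0.96 for Cyp3a13, so the size depends on the probe there.

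**Figure D3:**
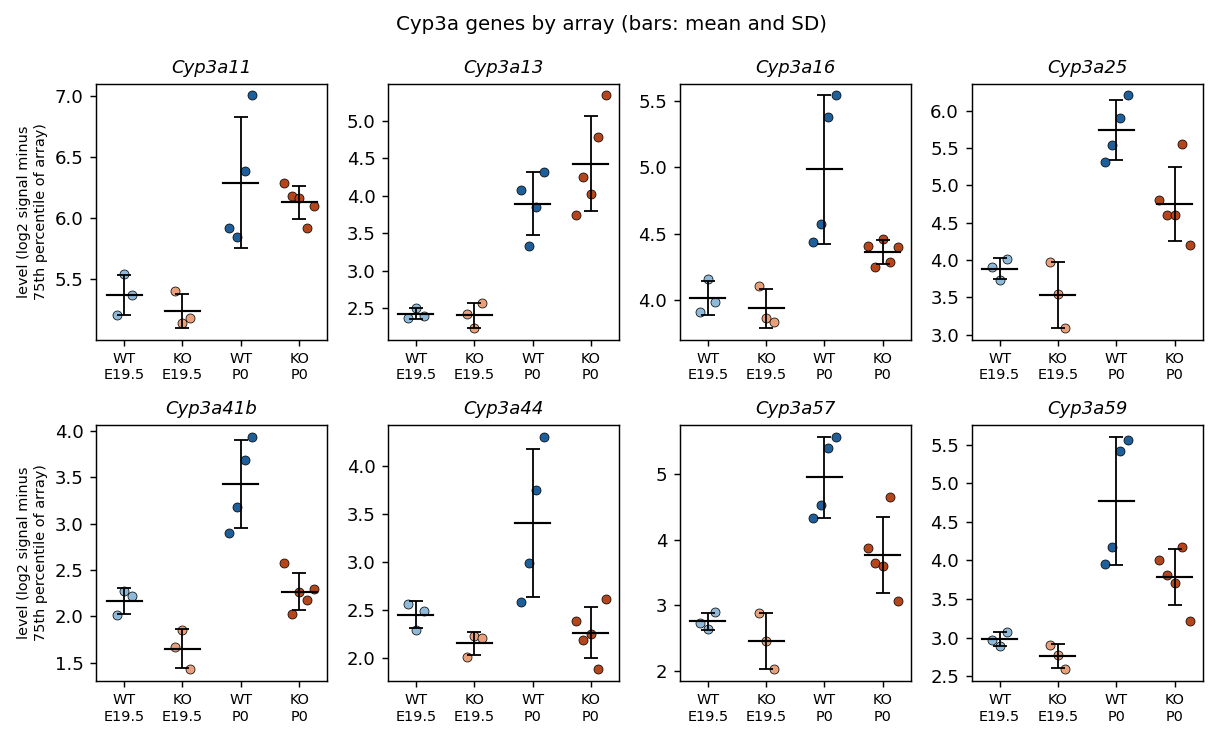
Levels of the 8 Cyp3a genes on each array, as log2 signal minus the array's 75th percentile (vertical axis, a separate scale per gene) by group (horizontal axis), with mean and SD as bars. All P0 WT arrays lie above all E19.5 WT arrays in each panel, and the upper pair of P0 WT points in Cyp3a16, Cyp3a44 and Cyp3a59 are WT P0 3 and 4.

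Subfamily 2d, which holds drug and steroid hydroxylases encoded on chromosome 15, had 6 of 10 kept genes lower in KO at P0, most of them by less than 2-fold and with little spread between arrays. Cyp2d12 gave 6.16, 6.24, 6.34 and 6.09 on the 4 WT arrays and 5.57, 5.61, 5.57, 5.52 and 5.65 on the 5 KO arrays and fell by 0.63 (SE 0.09, adjusted p = 0.0025). Cyp2d22, a relative of human CYP2D6, gave 3.58, 3.81, 3.76 and 3.5 on the 4 WT arrays and 3.06, 3.07, 2.95, 3.02 and 3.23 on the 5 KO arrays and fell by 0.6 (SE 0.11, adjusted p = 0.009). Neither gene overlapped between the genotypes, and for Cyp2d12 the gap was wider than the range within either group. Cyp2d40 gave 1.28, 1.72, 1.43 and 1.41 on the 4 WT arrays and 0.95, 0.51, 0.52, 0.98 and 0.45 on the 5 KO arrays and fell by 0.78 (SE 0.14, adjusted p = 0.0073). Cyp2d11 gave 7.98, 7.94, 7.94 and 7.94 on the 4 WT arrays and 7.64, 7.49, 7.4, 7.57 and 7.32 on the 5 KO arrays and fell by 0.46 (SE 0.09, adjusted p = 0.0083). All KO arrays of these genes, too, lay below all WT arrays. Cyp2d26, with a mean log2 signal of 17.89, gave 8.79, 8.85, 8.78 and 8.87 on the 4 WT arrays and 8.56, 8.58, 8.51, 8.35 and 8.57 on the 5 KO arrays and fell by 0.31 (SE 0.08, adjusted p = 0.035; 0.086 with the block). Over all 15 arrays, which also differed in age and genotype, its signal rose by 0.49 per unit of array brightness. On this scale its level thus fell as arrays got brighter, and the KO P0 arrays were dimmer than the WT P0 arrays (mean 75th percentile 9.16 and 9.44). The pseudogene Cyp2d37-ps had the largest difference of the 24, -2.22 (SE 0.49, adjusted p = 0.018), with 3.1, 3.3, 2.94 and 2.72 on the 4 WT arrays and 2.42, 0.42, 1.83, -0.02 and -0.7 on the 5 KO arrays. Its KO arrays spread widely while the WT arrays stayed together, and KO P0 2, 4 and 5 were lowest. Of the 4 that did not pass, Cyp2d9, a male-typical steroid hydroxylase of adult liver, differed by -0.52 (adjusted p = 0.07), Cyp2d10 by -0.18 (0.27), Cyp2d13 by -0.11 (0.86) and Cyp2d34 by 0.52 (0.78).

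Among the other family 2 genes, Cyp2f2, which activates naphthalene in lung and liver, was 3.74-fold lower. Its levels were 4.32, 3.12, 4.67 and 4.1 on the 4 WT arrays and 2.69, 2.16, 2.83, 1.09 and 1.98 on the 5 KO arrays, every KO array below every WT array, with a difference of -1.9 (SE 0.35, adjusted p = 0.0081). Cyp2g1, best known from olfactory mucosa, was dim at -2.68, -3.65, -3.37 and -3.7 on the 4 WT arrays and -3.87, -5.16, -4.37, -5.01 and -4.53 on the 5 KO arrays and fell by 1.24 (SE 0.32, adjusted p = 0.036; 0.067 with the block). Cyp2s1 (0.28), Cyp2t4 (0.19) and Cyp2u1 (-0.01) did not pass.

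In subfamily 2a, Cyp2a12, a hydroxylase of steroids and bile acids, gave 4.25, 3.88, 4.77 and 4.83 on the 4 WT arrays and 3.68, 3.32, 3.81, 2.9 and 3.43 on the 5 KO arrays and fell by 1.01 (SE 0.2, adjusted p = 0.012). Cyp2a22 gave -3.06, -2.62, -1.83 and -1.79 on the 4 WT arrays and -2.77, -3.96, -3.28, -4.17 and -4.74 on the 5 KO arrays, with KO P0 1 inside the WT range, and fell by 1.46 (SE 0.36, adjusted p = 0.029; 0.099 with the block). Cyp2a4, a testosterone hydroxylase, differed by 0.46 in the other direction and did not pass (adjusted p = 0.27). The Cyp2b genes are the classical targets of CAR and phenobarbital. Cyp2b9 gave -2.79, -1.89, -0.76 and -1.28 on the 4 WT arrays and -3.37, -3.27, -3.76, -3.09 and -3.67 on the 5 KO arrays and fell by 1.75 (SE 0.32, adjusted p = 0.0076), with all KO arrays lowest. Cyp2b13 (-1.08, adjusted p = 0.1) and Cyp2b10 (-0.51, 0.34) did not pass.

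Subfamily 2c, epoxygenases and drug hydroxylases encoded on chromosome 19, had 13 kept genes and 2 calls. Cyp2c37 gave 1.48, 1.67, 2.38 and 3.07 on the 4 WT arrays and 1.23, 0.95, 1.02, 1.06 and 0.84 on the 5 KO arrays and fell by 1.13 (SE 0.28, adjusted p = 0.029; 0.054 with the block). The KO arrays lay close together and the WT arrays spread upward to WT P0 4. A second Cyp2c37 probe differed by -0.69. Cyp2c44, now named Cyp2c23, gave 4.02, 3.78, 3.82 and 4.19 on the 4 WT arrays and 3.5, 3.27, 3.42, 2.82 and 3.33 on the 5 KO arrays and fell by 0.68 (SE 0.15, adjusted p = 0.017; 0.052 with the block). The other 11 ranged from -1.17 for Cyp2c50 to 0.76 for Cyp2c70, which makes muricholic acids in mouse bile acid synthesis. Cyp2c54 depended on the probe: the chosen one differed by -0.21, and another that was above background on all 15 arrays by -1.19. Cyp2c29, Cyp2c67 and Cyp2c68 differed by -0.22, 0.0 and 0.03. In subfamily 4a, Cyp4a31 gave 6.31, 6.34, 6.99 and 7.12 on the 4 WT arrays and 5.89, 5.74, 5.67, 5.56 and 4.09 on the 5 KO arrays and fell by 1.3 (SE 0.33, adjusted p = 0.035), and its 2 other probes differed by -1.54 and -1.34. Cyp4a32 gave 3.02, 3.05, 4.56 and 4.29 on the 4 WT arrays and 2.62, 2.3, 2.73, 2.87 and 1.09 on the 5 KO arrays and fell by 1.41 (SE 0.4, adjusted p = 0.0496), with KO P0 5 lowest in both genes. Cyp4a12a (-0.96, adjusted p = 0.067) and Cyp4a12b (-0.83, 0.1) were below 0 without passing.

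Subfamily 4f, which inactivates leukotrienes and hydroxylates fatty acids, showed 0 calls among 8 genes. Its differences lay between -0.38 and 0.02 except for Cyp4f14 at -1.97 (adjusted p = 0.057), a dim probe left out as an outlier spot on WT P0 4. With that spot kept its difference was -3.8 (adjusted p = 0.085). The vitamin D enzymes Cyp2r1 (-0.23), Cyp24a1 (-0.23) and Cyp27b1 (-0.16) did not pass, nor did Cyp26a1 (-0.36) and Cyp26b1 (-0.5), which degrade retinoic acid. Among the sterol enzymes Cyp7b1 differed by -0.76 (adjusted p = 0.1), Cyp39a1 by 0.0 and Cyp46a1 by 0.2. Cyp1b1 (0.47), Cyp20a1 (-0.23), Cyp4b1 (0.06) and Cyp4v3 (-0.35) did not pass either.

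The WT arrays of the P0 comparison were not alike. WT P0 3 and 4, which lie on slide 3 with KO P0 3 to 5, were both above the other 7 P0 arrays for 27 of the 74 P450 genes (36.5%), where 9.38% of all tested genes behaved so, and both below them for 5 (6.76%, against 15.7%). This count was made after the values had been seen. Of the 24 genes lower in KO, 15 were among the 27, among them all 5 Cyp2j genes, and the 9 others included the 6 Cyp2d genes. Without WT P0 3 and 4, 57 of the 74 differences were still below 0 with a median of -0.38, and the 24 genes ran from -2.41 to -0.30. Several sizes were much smaller: -0.52 for Cyp3a44, -0.56 for Cyp2c37, -0.53 for Cyp2j13, -0.72 for Cyp4a32, -0.66 for Cyp3a57 and -1.09 for Cyp2b9. The class medians were then -0.40 for family 3 and -0.38 for subfamily 2b, against -0.99 and -1.08 with all arrays, while those of subfamilies 2j (-1.0) and 2d (-0.55) lay closer to their values with all arrays (-1.24 and -0.49). In that fit 3 genes passed, Cyp2j8 (-1.0), Cyp2j9 (-1.19) and Cyp2d12 (-0.62), where 0.645% of all tested genes were lower. Leaving out WT P0 3 or WT P0 4 alone left 14 lower genes each (18.9%, against 2.07% and 2.19% of all tested genes). Of the 24 calls, 13 were kept in every fit that left out 1 array, and Cyp4a32 and Cyp2g1 were lost in 7 of 9 such fits, Cyp2c37 in 6 and Cyp2a22, Cyp2d26, Cyp3a25, Cyp3a44 and Cyp3a57 in 5. Within slide 2 (2 WT and 2 KO arrays) all 24 differences were below 0, from -1.78 to -0.25, and 0 passed. Of all tested genes 0.00883% were lower there. In that fit 26 of the 74 genes were at an unadjusted p under 0.05, a level not counted over all tested genes. Within slide 3 all 24 were below 0, from -2.49 to -0.35, and 8 of them passed, where 2.14% of all tested genes were lower. With slide as a block all 24 passed and 29 genes were lower in all (39.2%, against 5.1% of all tested genes). The exocrine pancreas markers Cpa1, Prss1, Cel and Ctrb1 were raised on these same 2 WT arrays. Cela1 of that list was not: it was at 0.49 and 0.72 there, below the other 7 P0 arrays. The part of pancreas transcripts in the differences was not tested. With array brightness as a covariate all 24 differences stayed below 0, from -2.62 to -0.40, and 0 passed, where 0.0133% of all tested genes were lower. Fitting only the 9 P0 arrays, with their own estimate of the spread, gave 6 lower genes (8.11%, against 1.03% of all tested genes).

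At E19.5 the same comparison asks whether P450 genes already differ before birth. None of the 74 genes passed in limma (10 at an unadjusted p under 0.05, smallest adjusted p = 0.53), where 0.0353% of all tested genes were called (0.0133% higher and 0.0221% lower), and a miss is no evidence that the genotypes were alike. How many of all tested genes reached the unadjusted level was not counted. The median difference was -0.13, against 0.02 over all tested genes, and 50 of 74 were below 0. All KO arrays lay below all WT arrays for 15 genes and above for 2, where 5.34% and 6.84% of all tested genes separated so. The largest differences below 0 were those of Cyp2j5, Cyp4a12a and Cyp4a12b. Cyp2j5 had -2.55, -2.39 and -2.36 on the 3 WT arrays and -3.73, -3.86 and -3.81 on the 3 KO arrays, a difference of -1.37 (SE 0.4, adjusted p = 0.99). Cyp4a12a had 0.1, 0.59 and -0.16 against -1.08, -1.07 and -0.9, and Cyp4a12b 0.6, 1.21 and 0.27 against -0.51, -0.49 and -0.39, with differences of -1.19 and -1.15 (SE 0.36 for both, adjusted p = 1). In each of these the genotypes were apart on all 6 arrays, and the KO values were tight. The smallest adjusted p belonged to Cyp2j8, with 1.44, 1.73 and 1.8 against 0.94, 0.79 and 0.82, a difference of -0.8 (SE 0.19). Cyp2j9 differed by -0.7, with -1.2, -0.96 and -1.38 against -1.88, -1.91 and -1.84. Cyp2j13 differed by -0.64, with -1.75, -1.57 and -1.58 against -2.13, -2.32 and -2.36, and Cyp2j6 by -0.47, with 0.16, 0.19 and 0.11 against -0.16, -0.32 and -0.46. The 5 Cyp2j genes separated by genotype at E19.5 without passing, with a median of -0.70. The largest differences above 0 were 0.73 for Cyp2b13, 0.7 for Cyp26a1 and 0.56 for Cyp2a4. Cyp26a1 was above background on 0 WT and 1 KO arrays, so its difference is not well measured (95% interval -0.56 to 1.95), and it was -0.15 with normexp and the 75th percentile. All 8 Cyp3a and all 4 Cyp4a genes were also below 0, with medians of -0.26 and -0.89.

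The difference between the KO effects at the 2 ages was tested directly, and 0 of the 74 genes passed (limma, 14 at an unadjusted p under 0.05, smallest adjusted p = 0.3, 0% of all tested genes called). Here, too, the unadjusted level was not counted over all tested genes. The P0 effect was the more negative for 55 of 74 genes, with a median of -0.33. The largest such values were -1.91 for Cyp2d37-ps, -1.84 for Cyp11a1 and -1.81 for Cyp2b13, and in the other direction 0.76 for Cyp2c70, 0.69 for Cyp2c65 and 0.62 for Cyp27b1. The Cyp11a1 value rests on WT P0 2, without which it was -0.03, and neither E19.5 group was above background for this gene. For the 5 Cyp2j genes they ran from -0.54 to -0.26, so a larger Cyp2j effect after birth was not shown.

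From E19.5 to P0 in WT liver, Cyp3a and Cyp2b genes rose, and both Cyp4a12 genes and 4 of 13 Cyp2c genes fell. Of the 74 genes 19 rose and 8 fell, where 8.35% of all tested genes rose and 10.7% fell. With normexp background correction and the 75th percentile 21 rose (28.4%) and 18 fell (24.3%), where 10.6% of all tested genes rose and 34.2% fell. The median of all genes moved to -0.16 in that fit and Cyp2d13 differed by -0.12. Normexp with quantile normalization gave 20 and 7, against 9.54% and 9.86% of all tested genes, with a median of 0. All 8 Cyp3a genes and all 3 Cyp2b genes rose with the arrays as fitted, as did Cyp2d9, Cyp2d13, Cyp2d22 and Cyp2d40, Cyp2j9, Cyp4a31 and Cyp4a32, and Cyp1b1. Those that fell were 4 Cyp2c genes, Cyp4a12a, Cyp4a12b, Cyp2d26 and Cyp46a1. Slide 1 held only E19.5 arrays and slide 3 only P0 arrays, and with slide as a block Cyp3a11 (adjusted p = 0.069), Cyp3a44 (0.2), Cyp2b13 (0.12) and Cyp2d22 (0.063) did not pass. The falls of Cyp2c29 (0.15), Cyp2c67 (0.11), Cyp2c68 (0.07), Cyp2c70 (0.061), Cyp46a1 (0.095) and Cyp2d26 (0.062) did not pass with the block either, while those of Cyp4a12a (0.039) and Cyp4a12b (0.029) did. Cyp1b1, which metabolises oestrogens and polycyclic hydrocarbons, had -4.45, -6.28 and -4.37 on the E19.5 arrays, none above background. At P0 it had -3.13, -2.07, -2.54 and -3.22, a rise of 2.29 (SE 0.53, adjusted p = 0.0099). The size of this rise is uncertain, because no E19.5 array was above background. Cyp3a57 went from 2.73, 2.64 and 2.9 to the P0 values above, a rise of 2.19 (SE 0.36, adjusted p = 0.0013). Cyp3a25 went up by 1.86 (SE 0.29, adjusted p = 0.0011) from 3.91, 3.73 and 4.01. Both lay higher on every P0 array than on any E19.5 array. Cyp3a59 had 2.97, 2.89 and 3.07 and then 3.95, 4.17, 5.42 and 5.56, a rise of 1.79 (SE 0.35, adjusted p = 0.0036). Cyp2b10 had 0.36, 0.0 and 0.35 and then 1.28, 1.38, 2.68 and 2.99, a rise of 1.85 (SE 0.36, adjusted p = 0.0035), and Cyp2b9 rose by 1.66 (SE 0.36, adjusted p = 0.0068) from -3.19, -3.41 and -3.44. WT P0 3 and 4 were the highest arrays in all of these but Cyp1b1. Cyp4a32 rose by 2.07 (SE 0.45, adjusted p = 0.0072) from 1.8, 1.3 and 1.88, and Cyp4a31 by 1.7 (SE 0.38, adjusted p = 0.0079) from 5.05, 4.64 and 5.27.

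The largest fall in WT was that of Cyp2c70, from 6.19, 6.36 and 6.29 to 5.55, 5.07, 3.32 and 2.99, a difference of -2.05 (SE 0.49, adjusted p = 0.011). WT P0 3 and 4 lay far under WT P0 1 and 2, so the size of this fall differed between the slides, and with slide as a block it was -1.52. Cyp4a12b fell by 1.68 (SE 0.34, adjusted p = 0.0043), to 0.01, -1.4, -1.05 and -1.53, and Cyp4a12a by 1.58 (SE 0.34, adjusted p = 0.0062), to -0.43, -1.9, -1.25 and -2.02. Within subfamily 4a, then, Cyp4a31 and Cyp4a32 rose while Cyp4a12a and Cyp4a12b fell. Cyp2c68 fell by 0.94 (SE 0.23, adjusted p = 0.012), from 7.12, 7.48 and 7.32 to 6.93, 6.42, 6.13 and 5.99. Cyp2c67, with a probe close to it, fell by 0.89 (SE 0.24, adjusted p = 0.02), from 7.0, 7.32 and 7.17 to 6.82, 6.46, 5.97 and 5.84. Cyp2c29 fell by 0.63 (SE 0.2, adjusted p = 0.043), from 6.26, 6.64 and 6.46 to 6.23, 5.7, 5.73 and 5.66. In these 3 genes WT P0 1 was closest to the fetal level. Cyp46a1, a cholesterol hydroxylase best known from brain, fell by 0.83 (SE 0.21, adjusted p = 0.015), from -0.37, -0.74 and -0.65 to -1.09, -1.08, -1.63 and -1.88, and Cyp2d26 by 0.37 (SE 0.09, adjusted p = 0.012), from 9.14, 9.24 and 9.2. The Cyp2d26 fall turned to a difference of 0.14 with quantile normalization. Brightness rose with age in WT, and with brightness as a covariate 16 of the 27 kept their direction and 0 passed. With slide as a block 17 of the 27 passed, and without WT P0 3 and 4 15 did. Of the 27 calls 19 were kept in every fit that left out 1 array, and Cyp2c29 was lost in 6 of 7 and Cyp2b13 and Cyp3a44 in 5.

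In KO liver 14 genes rose and 16 fell between the ages, where 8.57% of all tested genes rose and 11.4% fell. Of the 8 Cyp3a genes 6 rose, with Cyp2b10, Cyp2d9, Cyp2d13, Cyp2d40, Cyp2s1, Cyp39a1, Cyp4b1 and Cyp1b1. Cyp1b1 went from -5.04, -4.18 and -5.5, 1 of 3 above background, to -3.25, -2.52, -2.59, -1.43 and -1.56, a rise of 2.64 (SE 0.51, adjusted p = 0.0034). Cyp3a13 went from 2.42, 2.24 and 2.57 to 3.75, 4.25, 4.02, 4.79 and 5.34, a rise of 2.02 (SE 0.3, adjusted p = 0.00063), and in WT it rose by 1.47. Cyp2b10 went from 0.13, -0.39 and -0.32 to 1.52, 1.94, 1.35, 1.73 and 1.33, a rise of 1.77 (SE 0.34, adjusted p = 0.0033). These 3 genes did not overlap between the ages. Cyp3a57 rose by 1.31 (SE 0.34, adjusted p = 0.017) from 2.88, 2.45 and 2.03, Cyp3a25 by 1.22 (SE 0.28, adjusted p = 0.0093) from 3.97, 3.54 and 3.09. Cyp2d9 went from 2.84, 2.53 and 2.28 to 3.67, 3.59, 3.51, 4.15 and 3.82, a rise of 1.2 (SE 0.18, adjusted p = 0.00056). Cyp3a59 rose by 1.03 (SE 0.33, adjusted p = 0.043), from 2.9, 2.78 and 2.59 to 4.01, 3.81, 3.71, 4.17 and 3.22, and Cyp2d13, a dim gene, by 1.02 (SE 0.32, adjusted p = 0.042), from -4.89, -4.54 and -4.85 to -4.01, -4.25, -3.76, -3.15 and -3.54. Of the 30 calls in KO, 13 were kept in every fit that left out 1 array. Cyp2j8, Cyp3a41b and Cyp3a59 lost theirs in 7 of 8 such fits, and Cyp2d12, Cyp2d13, Cyp2f2 and Cyp2j5 in 6.

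Among the genes that fell in KO, Cyp2d37-ps was first, from 3.25, 3.25 and 3.1 to the wide P0 values above, a difference of -2.41 (SE 0.53, adjusted p = 0.007). Cyp2c37 fell by 1.5 (SE 0.3, adjusted p = 0.0042) from 2.93, 2.06 and 2.58, and in WT it differed by -0.22. Cyp4a12b fell by 1.36 (SE 0.32, adjusted p = 0.01) to -1.5, -1.76, -1.79, -2.47 and -1.59, and Cyp4a12a by 1.34 (SE 0.32, adjusted p = 0.011) to -1.85, -2.41, -2.27, -2.92 and -2.33. The KO arrays of both lay below the WT arrays at E19.5, and KO P0 had the lowest mean of the 4 groups. Cyp2c44 fell by 1.06 (SE 0.16, adjusted p = 0.00064) from 4.35, 4.06 and 4.57. Cyp2f2 fell by 1.15 (SE 0.38, adjusted p = 0.049) from 3.02, 3.14 and 3.73, and Cyp2j5 by 1.1 (SE 0.36, adjusted p = 0.047). Cyp2c66 fell by 0.92 (SE 0.28, adjusted p = 0.035), from -3.14, -3.9 and -4.08 to -5.3, -4.46, -4.4, -4.57 and -4.37, with KO P0 1 lowest. The other 8 that fell were Cyp2c29, Cyp2c67, Cyp2c68, Cyp2d12, Cyp2d26, Cyp2j8, Cyp2r1, the vitamin D hydroxylase of liver, and Cyp4v3, by 0.31 to 0.92. With slide as a block 9 of the 30 passed, all 30 in the same direction, and leaving out KO E19.5 3 left 16 calls and KO E19.5 2 left 19.

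**Figure D4:**
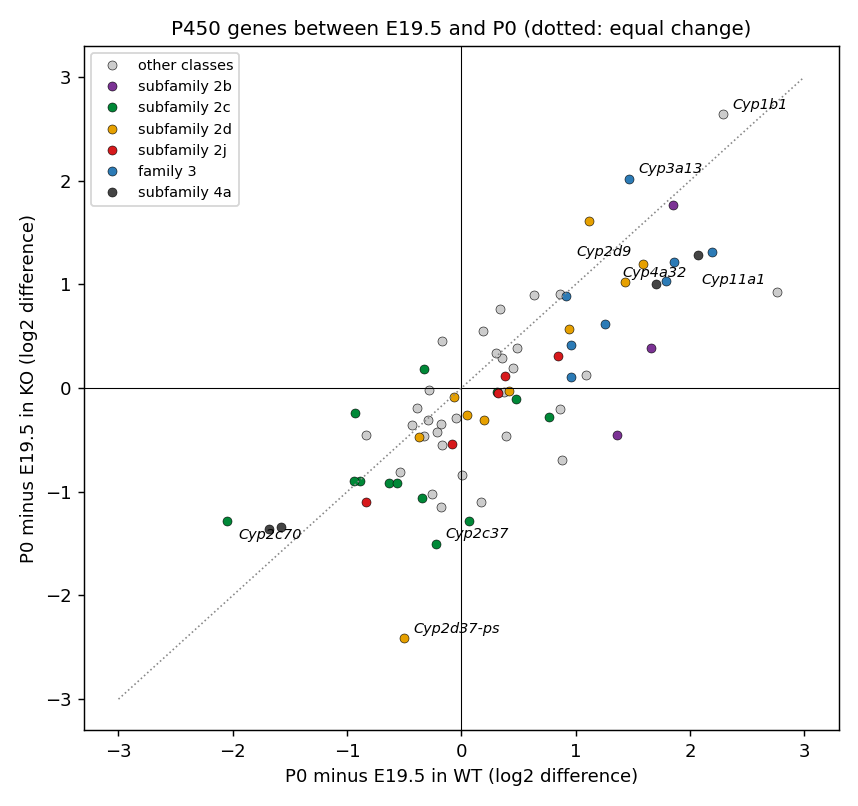
Change of each kept P450 gene from E19.5 to P0 in WT (horizontal axis) and in KO (vertical axis), as log2 differences, with classes in colour and a dotted line of equal change; the 2 axes share no array. Most Cyp3a points lie right of 0 and below the dotted line, Cyp3a13 and Cyp1b1 lie above it, and Cyp2d37-ps and Cyp2c37 lie at -0.50 and -0.22 in WT and at -2.41 and -1.50 in KO.

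The 2 age comparisons share no array, so their calls can be set against each other. Of the genes that rose, 19 in WT and 14 in KO, 11 rose in both, 57.9% of the WT list and 78.6% of the KO list, where the shares over all tested genes were 52.8% and 51.5%. Of those that fell, 8 in WT and 16 in KO, 6 fell in both, 75% and 37.5% of the lists, against 52.1% and 48.6% over all tested genes. None was called in opposite directions. Called in WT but not in KO among the risers were Cyp2b9, Cyp2b13, Cyp2d22, Cyp2j9, Cyp3a16, Cyp3a44, Cyp4a31 and Cyp4a32, and no such difference passed the test of the KO effect between ages.

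The P450s of steroid hormone synthesis are best known from adrenal and gonad, and the levels of Cyp11a1 and Cyp21a1 showed single arrays rather than groups. Cyp11a1, which cuts the cholesterol side chain, had -5.46, 2.29, -4.59 and -4.79 on the WT P0 arrays and -5.4, -4.97, -5.08, -5.01 and -3.08 on the KO P0 arrays. At E19.5 it had -5.6, -6.29 and -5.82 in WT and -5.74, -5.18 and -5.99 in KO, none above background. Cyp21a1, needed for cortisol-type hormones and aldosterone, had 0.18, 5.91, -0.79 and -0.8 and 0.15, -0.23, -0.15, 0.03 and 0.91 at P0, and 0.26, -0.19 and 0.02 and 0.22, -0.08 and -0.1 at E19.5. WT P0 2 was far above all other arrays in both genes and KO P0 5 came next. Cyp17a1, which makes androgen precursors, did not share this: it had 2.27, 2.02, 2.95 and 2.75 and 2.59, 2.69, 2.89, 2.76 and 2.04 at P0, with WT P0 2 and KO P0 5 lowest, and 2.81, 2.92 and 2.95 and 2.89, 2.94 and 2.52 at E19.5. No steroid gene passed in any comparison. The adrenal cortex markers Star, Mc2r and Nr5a1 were at 1.84, -0.20 and 0.91 on WT P0 2 against at most -1.97, -2.52 and -0.50 elsewhere. The other 2 genes of that list did not single out this array: Hsd3b1 was at 5.67 there and up to 5.96 at E19.5, and Akr1b7 at 6.9 there and 7.05 on KO P0 4. The part of adrenal transcripts in the P450 values was not tested. Cyp11b1, which completes glucocorticoid synthesis, missed the filter: it was above background on WT P0 2 (3.74) and KO P0 5 (-1.71) only.

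**Figure D5:**
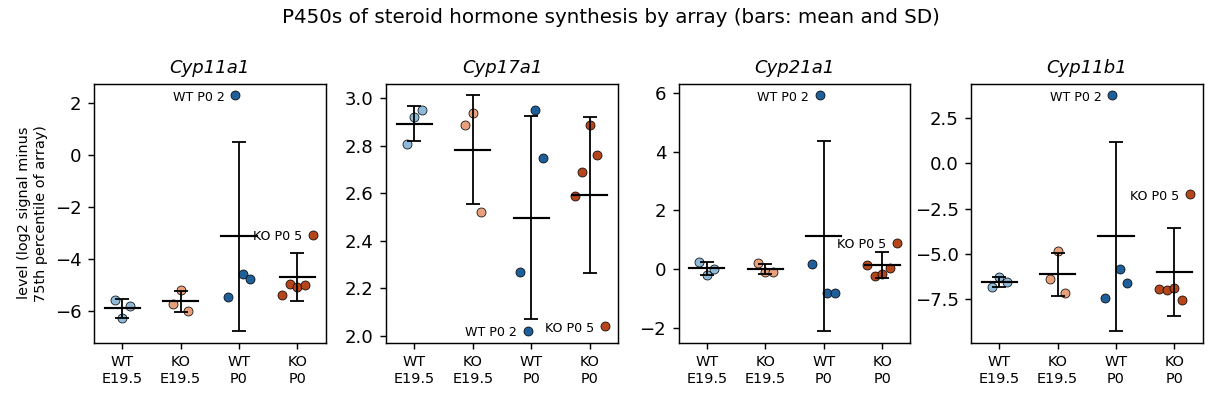
Levels of 4 P450s of steroid hormone synthesis on each array, as log2 signal minus the array's 75th percentile (vertical axis, a separate scale per gene) by group (horizontal axis), with mean and SD as bars. WT P0 2 stands highest for Cyp11a1, Cyp21a1 and Cyp11b1 and lowest for Cyp17a1, and KO P0 5 is second in each of these orders.

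Partners and regulators of the P450s were read from 2 lists. Of 19 measured redox partners and heme enzymes, 0 were higher and 3 lower in KO at P0, with a list median of 0.01, and 0 passed at E19.5. Over all tested genes 2.3% were higher and 4.73% lower at P0, and 0.0353% were called at E19.5. Ephx1, the microsomal epoxide hydrolase that acts on P450 products, differed by -1.27 (SE 0.14, adjusted p = 0.00084), Ephx2, the soluble form that hydrolyses arachidonic acid epoxides, by -0.81 (SE 0.23, adjusted p = 0.049) and Pgrmc1, a heme-binding P450 partner, by -0.49 (SE 0.13, adjusted p = 0.038). Ephx1 had 5.32, 5.5, 5.59 and 5.55 in WT and 4.6, 3.93, 4.27, 4.16 and 4.11 in KO, without overlap. Ephx2 had 3.8, 4.28, 4.85 and 5.17 in WT and 3.7, 3.66, 3.88, 4.01 and 3.36 in KO. Pgrmc1 had 5.04, 4.78, 5.33 and 5.5 in WT and 4.68, 4.49, 4.6, 4.74 and 4.86 in KO. Ephx2 and Pgrmc1 overlapped between the genotypes, and WT P0 3 and 4 stood highest in both. Por, which passes electrons to all microsomal P450s, rose with age in WT by 1.11 (SE 0.14, adjusted p = 0.00029) and in KO by 1.07 (SE 0.13, adjusted p = 0.00018), as did Alas1, the rate-limiting enzyme of heme synthesis, by 0.95 (SE 0.13, adjusted p = 0.00047) and 0.85 (SE 0.13, adjusted p = 0.00057). Of 43 measured regulators, 2 were higher and 8 lower in KO at P0, with a median of -0.16, and 0 passed at E19.5. These counts stand beside the same shares over all tested genes, 2.3% higher and 4.73% lower at P0. Nr0b2, the repressor SHP induced by bile acids, had -0.52, 0.49, -0.25 and -0.2 in WT and -1.95, -2.69, -2.3, -3.54 and -3.8 in KO, a difference of -2.74 (SE 0.37, adjusted p = 0.0022). Cebpa had 3.17, 2.89, 3.35 and 2.92 in WT and 2.57, 2.03, 2.42, 2.3 and 1.95 in KO, a difference of -0.83 (SE 0.14, adjusted p = 0.0054). Both separated the genotypes completely. Nr1i2 (PXR) differed by -0.51 (SE 0.12, adjusted p = 0.026), Dbp, a clock output factor, by -0.99 (SE 0.22, adjusted p = 0.018) and Foxa2 by -0.72 (SE 0.18, adjusted p = 0.031). Thrb differed by -0.45 (SE 0.12, adjusted p = 0.046) and the bile acid receptor Nr1h4 (FXR) by -0.59 (SE 0.17, adjusted p = 0.0495). The P0 genotypes overlapped for Foxa2, Thrb and Nr1h4 and did not for Nr1i2 and Dbp. Higher in KO were Ppargc1a, by 0.93 (SE 0.17, adjusted p = 0.0072), and Cebpb, by 0.41 (SE 0.11, adjusted p = 0.038). Nr1i3 (CAR) at -0.56 (adjusted p = 0.055), Ppara at 0.03 and Hnf4a at 0.27 did not pass. How far the calls of these 2 lists hold with left-out arrays, blocks or brightness is not reported here. Among markers of blood, bile duct, endothelial and other tissues, the calls at P0 were Fgb (higher) among 6 hepatocyte genes and Fabp2 and Vil1 (lower) among 3 intestinal genes, and 0 of 5 erythroid, 5 myeloid, 4 bile duct, 4 endothelial, 5 exocrine pancreas, 5 adrenal cortex and 5 skeletal muscle genes passed, nor did the kidney and the lung gene that were measured.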

How the data were processed

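Liver RNA of 15 samples was read on 1-colour Agilent arrays. The deposited scanner files hold intensities from Agilent Feature Extraction 10.10, per the file headers corrected for background and spatial trends and not scaled between arrays. The authors' deposited value table, on a log2 scale, served as an alternative; the submitters' processing notes name limma.

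Outlier spots (146 to 212 per array) were left out, spots of a probe averaged, and log2 of the processed signal minus each array's 75th percentile computed. Probes with a signal well above background on 3 or more arrays of 1 group were kept (54.3 to 66.6% of spots per array were above background), and the brightest probe stood for a gene. Limma 3.58.1 in R 4.3.3 fitted 4 group means (11 residual and 2.5 prior degrees of freedom), with Benjamini-Hochberg adjustment over 22638 genes and a threshold of 0.05. The script was tested on simulated data.

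Array values were given for P450 genes that passed in a KO comparison, for the 8 largest rises and falls with age among those that passed, and for the steroid genes; for a KO comparison with fewer than 3 calls, the 3 largest differences each way were named. List genes were named when they passed in a KO comparison, or among the largest age changes; a few others, such as Nr1i3, Ppara, Hnf4a, Cyp2j8 at E19.5 and the genes shown for single arrays, were chosen after their values were seen. Members and lists were chosen with earlier results of these data known. Of the regulators that passed at P0, 1 regulator that passed at P0 is counted but not reported here.

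Deviations of same-numbered WT and KO arrays had correlations of 0.14, 0.20, 0.13 and 0.27 at P0, where numbers also follow slides. At E19.5 the correlations were 0.21, 0.01 and 0.14. The labels do not say that numbers pair animals, so the main fit paired no arrays, and its P0 values ignore any such pairing. A fit with the replicate number as a block gave 17 lower genes at P0. Its adjusted p is given beside the P0 calls that it removed. Slide 1 held only E19.5 arrays, slide 2 all 4 groups and slide 3 only P0 arrays. The alternatives tried were normalization, background correction, filters, probe choice, the authors' table, slide, replicate block, array brightness and left-out arrays. Sequences came from RefSeq (GRCm38.p6) and probe positions from the files (mm9); 87 of 88 genes matched RefSeq.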

Additional observations from a re-analysis of the deposited data

Results flagged for a closer look

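In 13 of 147 gene and group pairs at P0, 1 array stood apart from the rest of its group by Dixon's test, where chance gives about 1 in 20. Of these 7 were in WT and 6 were in KO. Array WT P0 2 was highest for Cyp11a1 (2.29, next -4.59), Cyp21a1 (5.91, next 0.18), Cyp27b1, the kidney enzyme that activates vitamin D (-2.72, next -4.56), and the pseudogene Cyp4f41-ps (-4.58, next -4.76). Array KO P0 5 was highest for Cyp11a1 (-3.08, next -4.97) and lowest for Cyp4a31 (4.09, next 5.56) and Cyp4f15 (1.94, next 2.9). WT P0 1 was highest for Cyp2c29 (6.23, next 5.73) and for Cyp2d11 (7.98), where the other 3 arrays were at 7.94. WT P0 3 was lowest for Cyp2d10 (6.02, next 6.4). KO P0 1 was lowest for Cyp2c66 (-5.3, next -4.57), KO P0 2 lowest for Cyp4v3 (0.93, next 1.35) and KO P0 3 highest for Cyp2t4 (-1.24, next -2.38).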

How the results depend on the processing

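The count of P450 genes that passed at P0 was 24 as reported, all lower (32.4%, against 4.73% of all tested genes lower). Without a filter on dim probes it was 15 (17%, against 1.86%), and with only the P0 arrays fitted 6 (8.11%, against 1.03%). Within slide 3 it was 15, with 14 lower (18.9%, against 2.14%) and 1 higher (1.35%, against 1.67%). Within slide 2 it was 0 (0.00883% of all tested genes lower), and 0 with array brightness as a covariate (0.0133%). Without WT P0 3 and 4 it was 3 (4.05%, against 0.645%). Leaving out the 5 arrays with higher muscle or adrenal medians kept WT P0 3 alone for WT at P0. That array was assumed to vary like the other groups and had an exocrine pancreas median of 1.60. The median P450 difference was then -0.71. With 1 array left out the count was 14 to 28, lowest without WT P0 3 or WT P0 4. With the replicate block it was 17 (23%, against 2.5%). At E19.5, 1 gene passed when only the E19.5 arrays were fitted. The WT age count, 27, was 9 within slide 2, where 2.64% of all tested genes rose and 2.53% fell. It was 17 with only the WT arrays fitted (4.89% and 6.4% of all) and 0 with brightness (0% of all). Without WT P0 3 and 4 it was 17 (5.15% and 4.96%), and with the replicate block 24 (7.69% and 9.46%). Normexp with the 75th percentile gave 21 higher and 18 lower, against 10.6% and 34.2% of all. The KO age count, 30, was 11 when slide was a block, where 4.36% of all tested genes rose and 5.05% fell. It was 12 on slide 2 alone (2.16% and 2.66%), 13 with brightness (5.02% and 5.52%) and 25 with the replicate block (5.83% and 8.01%). With 1 array left out it was 16 to 29, lowest without KO E19.5 3 (16) and KO E19.5 2 (19).

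Of the values of named genes under the alternatives, 1656 kept direction and side of the threshold, 466 lost the call, 1 gained it and 22 turned sign. With brightness as a covariate the WT age change became -0.38 for Cyp2b10, 0.26 for Cyp2c29, 0.82 for Cyp2c67, 0.49 for Cyp2c68, 1.86 for Cyp2c70, -0.68 for Cyp2d13, -0.14 for Cyp3a16, -0.74 for Cyp3a44, -0.66 for Cyp3a59, 0.57 for Cyp46a1 and -0.65 for Cyp4a32. The difference of KO effects became -0.42 for Cyp27b1, -1.55 for Cyp2c65 and -2.18 for Cyp2c70 with brightness, -0.22 for Cyp27b1 and -0.15 for Cyp2c70 within slide 2, and -0.31 for Cyp2c70 without WT P0 3 and 4. Normexp with the 75th percentile gave -0.15 for Cyp26a1 at E19.5 and -0.12 for Cyp2d13 with age in WT. The WT age change of Cyp2d26 was 0.14 with quantile normalization, 0.01 with normexp and quantile and 0 in the authors' table. The causes were not tested. Dim genes, such as Cyp11a1, Cyp24a1 and Cyp26a1, were near background on most arrays, which limits their differences.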

Other observations

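Several P450 genes moved by array rather than by group. Cyp1a1, the target of the dioxin receptor, missed the filter but was above background on WT P0 3 (-2.82) and WT P0 4 (-2.17), against at most -5.86 on the other 13 arrays. Cyp2c39 differed between slides at P0 in both genotypes, with -2.81 and -2.85 on slide 2 and -0.45 and -0.23 on slide 3 in WT, and -3.59 and -3.72 against -1.23, -1.59 and -1.42 in KO. Cyp2d34 had low levels on WT E19.5 1 (-1.65), KO E19.5 2 (-1.59) and WT P0 2 (-1.27), and lay between 1.35 and 2.99 on the other 12 arrays. Its second probe differed between the genotypes at P0 by -0.55 where the chosen one differed by 0.52. These items were chosen after their values were seen.

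Of the 8 P450 genes left aside, 4 were lower in KO at P0 (limma). Cyp2e1, which oxidises ethanol, differed by -1.75 at E19.5 (adjusted p = 0.008) and -2.94 at P0 (adjusted p = 4.9e-06). Cyp4a10 and Cyp4a14 differed at P0 by -1.31 (adjusted p = 0.031) and -1.29 (adjusted p = 0.036). Cyp1a2, which oxidises caffeine, differed by -3.90 (adjusted p = 0.0047), a size that is uncertain because 1 of 5 KO arrays was above background, against 4 of 4 WT arrays; at E19.5 it was above background on 1 array of each genotype. Cyp51 (-0.75), Cyp7a1 (0.49), Cyp8b1 (0.20) and Cyp27a1 (0.11) did not pass at P0.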
